A study of Mus musculus with 6 samples.

Results

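Endocrine cells of the pancreas arise through a cascade of transcription factors that starts with Neurog3, and 10 genes of that cascade were followed: Neurog3, Neurod1, Nkx2-2, Insm1, Pax4, Pax6, Isl1, Rfx6, Myt1 and St18. They were chosen by name, as rows of the array table annotated with exactly 1 of these symbols, and the row with the highest mean was to be taken where a gene had several. All 10 genes had 1 such row each, out of 19938 genes tested. RNA came from pancreata of mouse embryos at E13.5 and was hybridized to Affymetrix Mouse Gene 1.0 ST arrays, which cover each gene with several probes. There were 3 control pools and 3 mutant pools, each made of 3 pancreata from separate embryos, with 1 array per pool. Mutant embryos carried Pdx1-Cre (Pdx-Cre in the labels) and 1 copy of Ctnnb1tm1Mmt, an allele of β-catenin in which loxP sites flank the exon that holds the degradation signal, and its removal leaves a β-catenin that resists degradation. Control embryos are labelled wild type, and the sources used here do not say whether they carried either allele alone. Cre is driven by the Pdx1 promoter, so recombination is directed to the epithelium of the pancreatic primordium and neighbouring gut, while each pool also held mesenchyme, nerves and vessels. The comparison asks how the endocrine cascade stood in pancreata in which activated β-catenin was directed to the epithelium. In mutant pancreata the study also found cells with normal levels of pancreatic factors and without nuclear β-catenin. For such cells in newborns it gives inefficient excision as the likely reason. How much of the signal in mutant pools came from such cells was not tested.

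All values are the deposited log2 array values, in which a difference of 1 is a doubling of signal, and changes are mutant minus control. A gene passed the test where its p-value from limma, a linear model that shares the spread across genes, was under 0.05 after Benjamini-Hochberg adjustment over all genes. Array medians lay between 6.37 and 6.47 and lower quartiles between 4.86 and 4.98, and arrays correlated at 0.993 to 0.997 within a genotype and 0.973 to 0.979 between genotypes. Ctnnb1 itself read 12.36, 12.14 and 12.33 in control pools and 12.64, 12.37 and 12.65 in mutant pools, a change of 0.28 ± 0.11 (SE) that did not pass the test (limma adjusted p = 0.148). Since the row sums probes over the gene, it does not check the deletion. The number of arrays limits the precision of every value.

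During pancreas development Neurog3 appears briefly in scattered epithelial progenitors and commits them to the endocrine fate. It is held in check by Notch signalling and switches on further factors, among them Neurod1, Nkx2-2, Insm1, Pax4, Rfx6, Myt1 and St18. Pax6 and Isl1 follow in cells that have left the cell cycle and begin to make hormones. Most of these genes also act elsewhere in the embryo, mainly in neurons, and Isl1 is also active in mesenchyme next to the dorsal pancreas and the stomach.

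Neurog3 and Neurod1 are basic helix-loop-helix proteins, which bind E-boxes (CANNTG), and for that reason the 250 bases before the start of 4 genes are shown: the 3 with the largest decreases and Isl1, which moved the other way. The sequences are RefSeq's for mouse assembly GRCm38.p6, read 5′ to 3′ on the strand of the gene, with E-boxes in capitals, and the arrays measured nothing in these windows.
Neurog3, chr10:62132840-62133089, plus strand: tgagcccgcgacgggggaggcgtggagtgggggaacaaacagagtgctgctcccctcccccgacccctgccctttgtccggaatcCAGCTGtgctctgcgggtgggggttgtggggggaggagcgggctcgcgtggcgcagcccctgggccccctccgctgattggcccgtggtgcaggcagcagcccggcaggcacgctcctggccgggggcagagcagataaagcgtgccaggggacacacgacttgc
Neurod1, chr2:79456637-79456886, minus strand: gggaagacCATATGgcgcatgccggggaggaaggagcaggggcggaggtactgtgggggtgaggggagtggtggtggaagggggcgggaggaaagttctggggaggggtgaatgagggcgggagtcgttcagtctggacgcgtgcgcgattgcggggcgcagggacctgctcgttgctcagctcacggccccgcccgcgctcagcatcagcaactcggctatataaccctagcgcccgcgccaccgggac
Nkx2-2, chr2:147186403-147186652, minus strand: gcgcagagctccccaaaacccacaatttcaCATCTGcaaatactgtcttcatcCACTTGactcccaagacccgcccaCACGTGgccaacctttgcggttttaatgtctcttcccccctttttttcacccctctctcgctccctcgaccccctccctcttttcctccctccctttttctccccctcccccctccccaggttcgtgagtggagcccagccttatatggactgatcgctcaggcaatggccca
Isl1, chr13:116309689-116309938, minus strand: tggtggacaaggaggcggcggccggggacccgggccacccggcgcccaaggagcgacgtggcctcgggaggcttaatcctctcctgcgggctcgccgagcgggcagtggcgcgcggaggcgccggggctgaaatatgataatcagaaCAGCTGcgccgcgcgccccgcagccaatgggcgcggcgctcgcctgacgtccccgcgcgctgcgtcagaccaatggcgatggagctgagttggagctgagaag

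The Neurog3 and the Isl1 window each held 1 E-box with the letters CAGCTG, with its first base at position -165 for Neurog3 and -103 for Isl1, counted from the start. The Neurod1 window held CATATG at -242, and the Nkx2-2 window held CATCTG at -220, CACTTG at -197 and CACGTG at -173. RefSeq entries were found for 7 of the 10 genes, with 10 windows among them, and 7 windows held an E-box against 66.2% of 32851 mouse windows of that length, so E-boxes were about as common here as in mouse promoters at large. The pattern CANNTG reads the same on both strands. CAGATG and its complement CATCTG, a form contained in the E-box pattern that Neurog and Neurod proteins are known to bind, was in the Nkx2-2 window alone (1 of 10, against 14.4% of all windows). TCAAAG or CTTTGA, 1 form of the letters bound by the Tcf and Lef partners of β-catenin, was in 0 of the 10 windows, against 13.8% of all windows. Other forms were not searched, so the windows may still hold them.

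Of the 10 genes, 9 fell and 1, Isl1, rose in mutant pools (limma, Benjamini-Hochberg adjusted p under 0.05). Among all genes tested 7.53% fell and 6.59% rose at this threshold. The median change of the 10 genes was -2.38 on the log2 scale, against 0.03 for all genes. The groups did not overlap for any of the 10 genes, with the mutant pools lower for 9 and higher for 1, and among all genes they did not overlap for 13.9% with the mutant lower and for 16.9% with the mutant higher. In whole pancreata, fewer cells of a type and less RNA per cell cannot be told apart. Markers of epithelium moved with the 9 genes: 16 of 20 were lower and 0 higher, and their mean level was between 9.67 and 9.92 in control pools and between 8.89 and 9.01 in mutant pools.

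Neurog3, the factor at the head of the cascade, had array values of 10.95, 11.50 and 10.72 in control pools and 6.45, 6.21 and 6.66 in mutant pools. Every mutant pool lay at least 4.05 below every control pool, the widest gap among the 10 genes. The mean fell from 11.06 ± 0.40 (SD, n = 3) to 6.44 ± 0.23, a change of -4.61 ± 0.19 (SE) or 24.5-fold (adjusted p = 3.84e-07).

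Neurod1, which Neurog3 activates and which keeps endocrine differentiation going, read 8.82, 9.42 and 8.71 in control pools and 4.91, 5.07 and 5.0 in mutant pools. The mutant values sat close to the lower quartile of all rows on these arrays, and no mutant pool came near any control pool. Neurod1 fell by 3.99 ± 0.17 (SE), or 15.9-fold (adjusted p = 4.21e-07). Nkx2-2, a homeodomain factor needed to form β-cells, read 9.89, 10 and 9.72 in controls and 6.71, 6.74 and 6.68 in mutants. Replicates lay close together, with an SD of 0.14 among control and 0.03 among mutant pools. The change was -3.16 ± 0.10 (SE), or 8.93-fold (adjusted p = 1.04e-07).

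Pax4, a paired-homeodomain factor that favours the β-cell and δ-cell fates, had values of 9.01, 9.45 and 9.24 in control pools and 6.42, 6.34 and 6.27 in mutant pools. These groups were 2.59 apart at their nearest values. Pax4 fell by 2.89 ± 0.12 (SE), or 7.41-fold (adjusted p = 4.03e-07). Insm1, a zinc-finger factor active in endocrine progenitors and in neuroendocrine cells at large, read 9.25, 9.25 and 9.39 in controls and 7.89, 7.88 and 8.01 in mutants. Both groups were tight, with an SD of 0.08 among the control and 0.07 among the mutant pools, and all mutant values remained well above the array medians. Its decrease of 1.37 ± 0.09 (SE), or 2.58-fold (adjusted p = 6.83e-06), was the smallest of the 9.

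Pax6, a paired-homeodomain factor that switches on hormone genes and is needed for α-cells, read 8.0, 8.57 and 8.19 in control pools and 5.64, 5.57 and 5.72 in mutant pools. All 3 mutant values lay below the array medians. Pax6 fell by 2.61 ± 0.14 (SE), or 6.11-fold (adjusted p = 1.56e-06). Rfx6, a winged-helix factor found first through the gut endoderm and later in islet cells, read 8.61, 9.01 and 8.71 in controls and 7.17, 6.75 and 7.27 in mutants. Mutant pool 2 was the lowest, and the SD among mutant pools, 0.27, was the largest of the 10 genes. The change of Rfx6 was -1.72 ± 0.15 (SE), or 3.28-fold (adjusted p = 4.5e-05).

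Myt1 and St18 encode related zinc-finger proteins of the myelin transcription factor family that act with Neurog3 in endocrine progenitors. Myt1 read 6.87, 6.97 and 6.71 in control pools and 5.38, 5.44 and 5.40 in mutant pools. St18 read 7.43, 7.98 and 7.41 in control pools and 5.51, 5.57 and 5.29 in mutant pools. For both, mutant values stood below the array medians and near each other. Myt1 fell by 1.44 ± 0.10 (SE), or 2.71-fold (adjusted p = 6.98e-06). St18 fell by 2.15 ± 0.16 (SE), or 4.43-fold (adjusted p = 1.15e-05).

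Isl1, a LIM-homeodomain factor of maturing endocrine cells, neurons and mesenchyme, was the exception. It read 8.73, 8.93 and 8.64 in control pools and 9.27, 9.05 and 9.46 in mutant pools. The groups were separated by 0.13, between control pool 2 and mutant pool 2, the narrowest gap of the 10 genes. Isl1 rose by 0.49 ± 0.13 (SE, 95% interval 0.21 to 0.77), or 1.41-fold (limma adjusted p = 0.0259). The call was lost without control replicate 1 (adjusted p = 0.0878), control replicate 3 (0.0976), mutant replicate 1 (0.0842) or mutant replicate 3 (0.0887). It was also lost with arrays centred on housekeeping genes (adjusted p = 0.0501) and when all rows of the array table were fitted (0.0979). The change stayed positive under all 17 alternatives, but most of them could not reverse it. Leaving out an array could not, since the groups did not overlap, and several others left the estimate the same by construction. Markers of gut and stomach mesenchyme moved with Isl1: 13 of 16 were higher and 0 lower, with a mean level between 7.81 and 7.86 in control pools and between 8.93 and 9.22 in mutant pools. Of 14 neural markers tested 10 were lower and 1 higher, with a mean level between 7.60 and 7.70 in controls and between 6.84 and 6.95 in mutants. The part of either cell type in the Isl1 value was not tested.

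**Figure D1:**
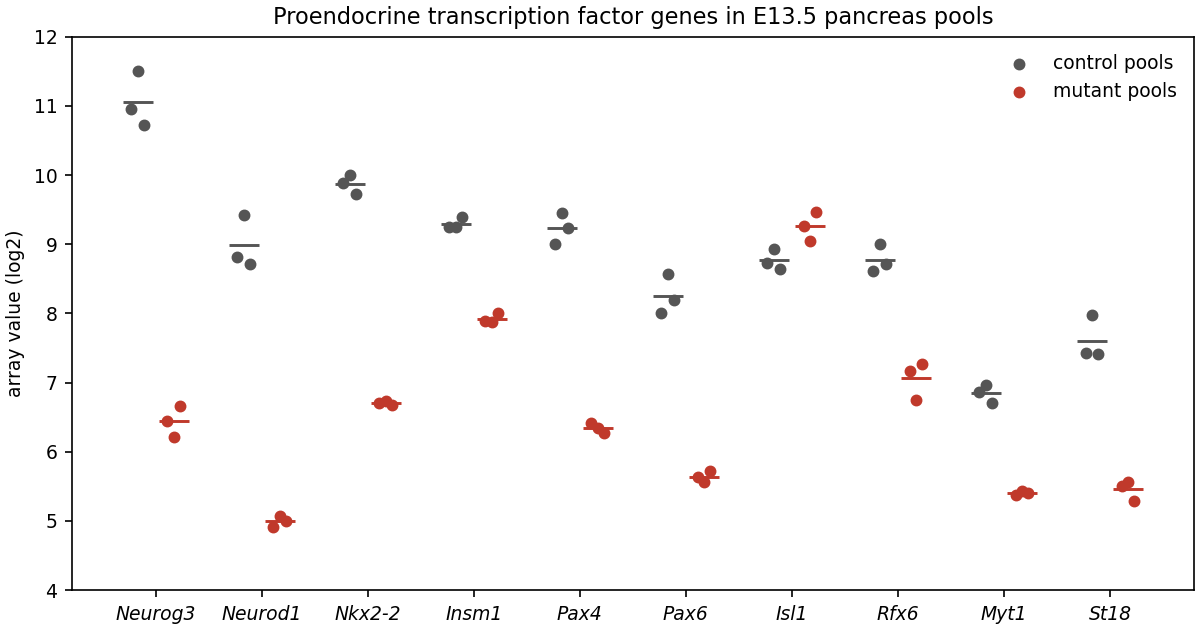
Array values (log2, vertical axis) of the 10 proendocrine transcription factor genes in each of 3 control (grey) and 3 mutant (red) pools, with horizontal lines at the group means. The groups are separate for every gene, with the mutant pools lower for 9 genes and higher for Isl1.

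Ordered by size, the decreases ran from Neurog3 and Neurod1 through Nkx2-2, Pax4, Pax6, St18, Rfx6 and Myt1 to Insm1. The 95% intervals of neighbours in this order overlapped except at 2 places. Neurod1 (-4.37 to -3.61) and Nkx2-2 (-3.38 to -2.94) did not overlap, and neither did Insm1 (-1.57 to -1.16) and Isl1 (0.21 to 0.77). The interval of Neurog3, -5.04 to -4.19, overlapped that of Neurod1. Differences between genes in the size of the change were not tested, and probes of different genes need not respond alike to a given change in RNA.

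Because epithelial genes as a group were lower in mutant pools, each array was also taken relative to its mean over the 20 epithelial genes. On this scale the same 9 genes were lower and Isl1 was higher, while over all genes tested 1.73% were lower and 94.1% higher. Neurog3 was lower by 3.81 ± 0.15 (SE) on the log2 scale relative to epithelial genes, or 14-fold (limma adjusted p = 1.69e-09). Neurod1 followed at 9.07-fold, Nkx2-2 at 5.1-fold, Pax4 at 4.23-fold, Pax6 at 3.49-fold and St18 at 2.53-fold. The decreases of Rfx6 (1.88-fold), Myt1 (1.55-fold) and Insm1 (1.47-fold, adjusted p = 0.00103) were the smallest. For these 3 genes the change relative to epithelial genes was -0.91, -0.63 and -0.56 on the log2 scale, against -1.72, -1.44 and -1.37 in the deposited values. The 20 epithelial genes themselves ran from -1.97 (Ehf) to 0.35 (Cdh3) in the deposited values, so this scale depends on the genes averaged. Ehf and Krt8 (-1.84) fell more than Rfx6, Myt1 and Insm1 did. Isl1 stood 2.46-fold higher relative to epithelial genes, on a scale on which nearly all genes were higher.

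**Figure D2:**
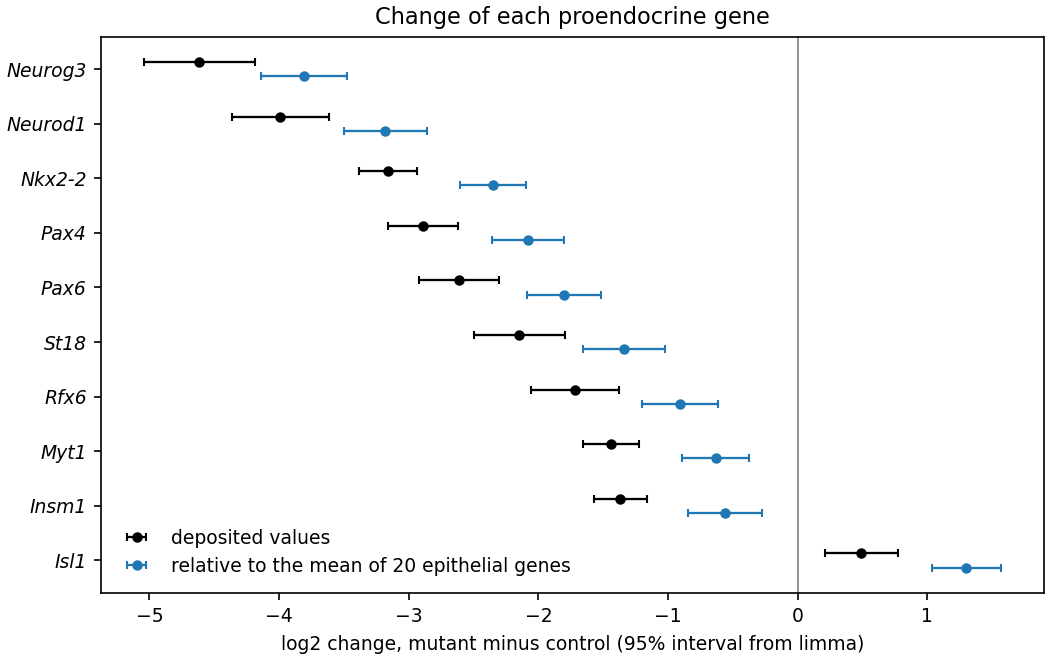
Log2 change, mutant minus control, of each proendocrine gene with its 95% interval from limma (points and bars), in the deposited values (black) and relative to the mean of 20 epithelial genes on the same array (blue). Neurog3 lies farthest left at -4.61 and -3.81, and only Isl1 lies right of 0, at 0.49 and 1.30.

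The control pools also differed among themselves. Control pool 2 had the highest value for 9 of the 10 genes, all but Insm1, while it was the highest control for 38.8% of all genes tested. Its median deviation from the control mean was 0.22 over the 10 genes and 0.01 over all genes. The largest deviations in control pool 2 were those of Neurog3 and Neurod1, at 0.44 each, followed by St18 at 0.37 and Pax6 at 0.32. Hormone and granule genes did likewise, with control pool 2 highest for 13 of 16 genes and a median deviation of 0.32. Epithelial markers were highest in the same pool for 16 of 20 genes, with a median deviation of 0.15. Among the mutant pools the order varied from gene to gene: pool 3 was highest for 5 of the 10 genes, pool 2 for 4 and pool 1 for 1.

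**Figure D3:**
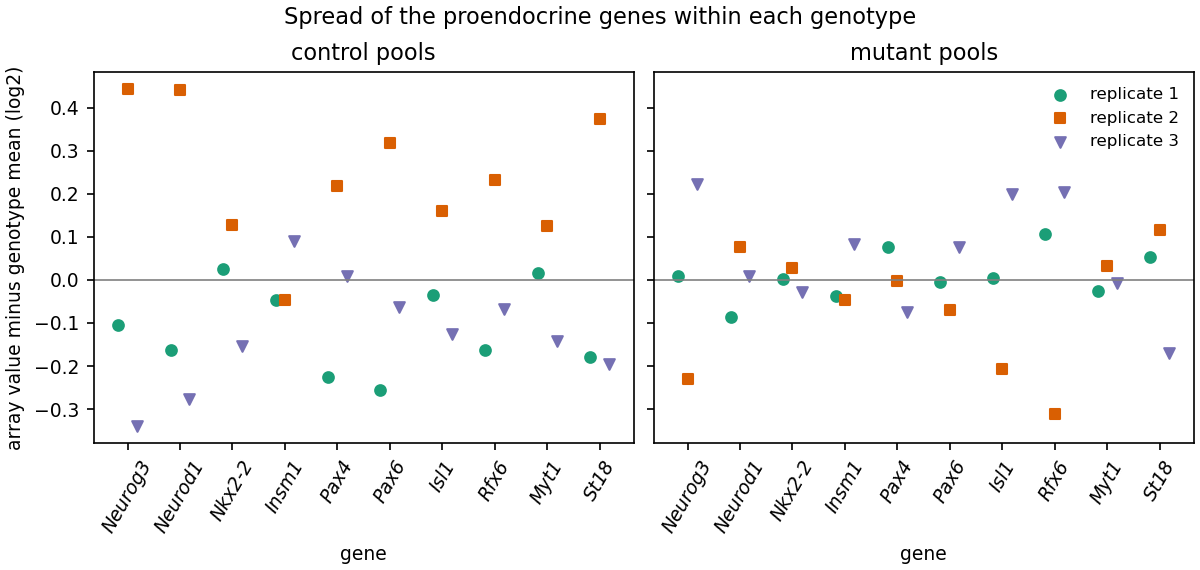
Array value minus the genotype mean (log2, vertical axis) for each proendocrine gene in the 3 control pools (left) and the 3 mutant pools (right), with 1 symbol per replicate. Control replicate 2 lies above 0 for every gene except Insm1, up to 0.44 for Neurog3, whereas mutant replicates change order from gene to gene.

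Other genes around the cascade were taken from 8 companion lists. Among the factors known to act upstream of Neurog3, 4 of 11 tested fell, 0 rose and 7 did not pass the test, with a median change of -0.15. Pdx1, the homeodomain factor that defines the pancreatic domain, read 9.87, 9.95 and 9.97 in control pools and 5.86, 5.87 and 5.59 in mutant pools, a change of -4.16 ± 0.10 (SE). Onecut1, which activates Neurog3, fell by 3.08 ± 0.14. Nkx6-1, a homeodomain factor of bipotent and β-cells, fell by 2.52 ± 0.11 and Glis3 fell by 1.85 ± 0.11. The other upstream genes included Sox9, which marks Neurog3-competent progenitors, at -0.33 (adjusted p = 0.14), the Notch effectors Hes1 at 0.13 and Rbpj at 0.12, and Foxa2 at 0.11.

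Genes known to accompany the Neurog3 stage were divided: 6 of 15 fell, 2 rose and 7 did not pass, with a median of -0.29. Nhlh1, a basic helix-loop-helix factor, fell by 1.92 ± 0.16 (SE). Igfbpl1 (-1.51 ± 0.13), the growth-arrest gene Gadd45a (-1.27 ± 0.11) and the corepressor gene Cbfa2t3 (-0.89 ± 0.15) fell as well, though relative to epithelial genes Cbfa2t3 stood at -0.08 (adjusted p = 0.608). The 2 genes that rose were Sox11 (0.66, adjusted p = 0.0377) and Mycl (0.30, adjusted p = 0.0424). Of these 2 calls 0 were left without any 1 of the mutant replicates, with arrays centred on housekeeping genes or with all rows fitted. Without any 1 of the control replicates 1 was left. Among later lineage factors 5 of 10 fell, 0 rose and 5 did not pass, with a median of -0.31. Pou3f4, a POU-domain factor of α-cells, changed most, by -2.76 ± 0.16. Mnx1, a β-cell factor (-0.80 ± 0.12), Irx1 (-0.65 ± 0.11) and Rfx3, a partner of Rfx6 (-0.44 ± 0.11), were lower too. The Rfx3 call was lost without control replicate 1 (adjusted p = 0.0832), control replicate 3 (0.086) or mutant replicate 2 (0.0513), and relative to epithelial genes Mnx1, Irx1 and Rfx3 had changes of 0.01, 0.16 and 0.37.

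The products of endocrine cells were lower nearly throughout. Of 16 hormone and secretory-granule genes 15 fell and 0 rose, with a median change of -2.06. Chgb, a granin of dense-core granules, read 9.90, 10.41 and 9.93 in control pools and 6.39, 6.32 and 6.37 in mutant pools, a change of -3.72 ± 0.14 (SE). Scg3, which helps form the granules (-3.17 ± 0.17), Pcsk1, a prohormone convertase (-2.83 ± 0.21), and Chga, another granin (-2.81 ± 0.17), also fell. The remaining gene was Sst, the somatostatin gene, with 6.81, 7.52 and 6.62 in controls and 6.70, 6.70 and 6.53 in mutants (change -0.34, adjusted p = 0.336).

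Of the relatives of the 10 genes within their own families, 2 of 27 fell, 6 rose and 19 did not pass, with a median of 0.08. Over all genes tested 7.53% fell and 6.59% rose, so decreases were about as common among these relatives as among all genes. Of the 27, 8 had a mean above the median of all genes tested and 25 a mean above the lower quartile. Among the 10 proendocrine genes 6 had a mean above that median. Whether low signal limited the decreases was not tested. Rfx4 rose from 5.21, 4.92 and 4.88 in control pools to 7.71, 7.11 and 7.33 in mutant pools, a change of 2.38 ± 0.15 (SE), while Rfx6 fell. Isl2, the closest relative of Isl1 and a motor neuron factor, rose by 1.41 ± 0.12. Pax3, a neural crest and muscle factor, rose by 1.17 ± 0.12 and Nkx2-3, a factor of gut mesenchyme, by 1.09 ± 0.13. The 2 relatives that fell were Neurod2 (-0.66 ± 0.12) and Rfx3. Neurog1 (0.05) and Neurog2 (0.06) did not pass the test, and their values lay between 5.38 and 6.09 on all 6 arrays.

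Of the neural genes 10 of 14 fell, 1 rose and 3 did not pass, with a median of -0.64. How far other cells, endocrine cells among them, contributed to these values was not tested. Ret, the receptor through which enteric neuron precursors sense a glial growth factor, fell by 2.59 ± 0.09 (SE), and Dcx, a microtubule protein of young neurons, fell by 2.32 ± 0.12. Snap25 of the secretory machinery fell by 0.95 ± 0.13 and Th, the first enzyme of catecholamine synthesis, fell by 0.90 ± 0.12. Relative to epithelial genes both calls were lost, with Snap25 at -0.14 (limma adjusted p = 0.325) and Th at -0.09 (0.587). On that scale 2 neural genes were lower in place of 10, while over all genes tested 1.73% were lower in place of 7.53%. Whether the neural decrease was tied to the epithelial one was not tested. Ednrb, a receptor of neural crest, rose by 0.89 ± 0.10. Among the 20 epithelial genes the median was -0.78, and Ehf (-1.97 ± 0.18), Krt8 (-1.84 ± 0.12), Cdh1 (-1.68 ± 0.13) and Elf3 (-1.37 ± 0.09) fell most. The median of the 16 gut mesenchyme genes was 1.16, with the largest rises in Foxf2 (4.01 ± 0.19), Foxf1 (3.54 ± 0.11), Bmp4 (2.20 ± 0.11) and Foxl1 (1.73 ± 0.13).

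**Figure D4:**
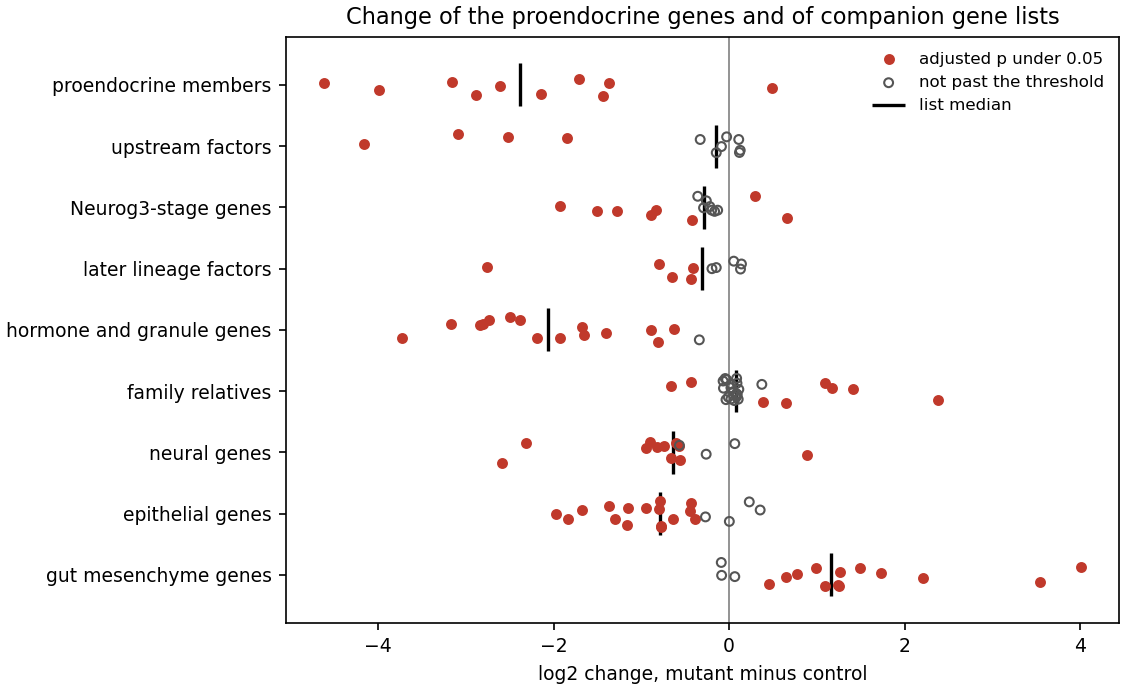
Log2 change, mutant minus control (horizontal axis), of each tested gene in the proendocrine group and the 8 companion lists, filled where the limma adjusted p was under 0.05 and open where it was not, with a black bar at the list median. Medians run from -2.38 for the proendocrine genes to 1.16 for gut mesenchyme genes.

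The genes whose values ran nearest to Neurog3 over the 6 arrays were found by the root mean square difference after each gene was centred on its own mean. The nearest was Vtn (0.24), with values of 10.40, 10.57 and 10.38 in control pools and 6.05, 6.02 and 6.02 in mutant pools. Clps, which encodes the cofactor of pancreatic lipase, came next (0.30), then Ambp (0.31), Neurod1 (0.35) and Pdx1 (0.39). Only 1 of these 5, Neurod1, was among the proendocrine genes. Nearest to Isl1 were Slc43a1 and Gstm5 (0.03 each), Tmtc4 and Unc119 (0.04 each) and Cbln1 (0.05), with changes between 0.42 and 0.53. These 5 genes were, like Isl1, highest in pool 2 among controls and lowest in pool 2 among mutants. Since they were picked for values near those of Isl1 on the same arrays, this shared order follows from the selection.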

How the data were processed

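Pancreata of E13.5 mouse embryos were measured on 6 arrays (3 control and 3 mutant pools), with genotype and replicate from the labels and pool size from the study's methods. The values, as deposited by the authors, are on a log2 scale, normalized between arrays, and each row is 1 transcript cluster; the sources used here do not give the background correction, summarization, normalization method or genome build. The table held 35556 rows. The 21789 rows annotated with 1 symbol were used, and 1621 with several symbols and 12146 without any were not. Entrez identifiers of 21698 rows matched RefSeq (GRCm38.p6), which changed 0 symbols. Where a gene had more than 1 row (999 genes), the brightest on average was kept, which left 19938 genes.

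Mutant and control were compared with R 4.3.3 and limma 3.58.1 (a linear model with empirical Bayes moderation, no covariate, no filter), the method the study names, with Benjamini-Hochberg adjustment over all genes and a threshold of 0.05. An exact permutation test of 3 against 3 pools cannot go below 0.1, so p-values rest on limma. The procedure was run on 5 simulated sets with independent noise and far fewer changed genes than here. This does not check its error rate on these data. Tables and figures used matplotlib 3.10.9 and pandas 2.3.3 in Python 3.11.15.

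The 10 genes and the companion lists were chosen with earlier results of these data known, so list counts are descriptions without a list test. The naming rule took all 10 genes, up to 4 genes per list with the largest change past the threshold, and the 5 genes nearest to Neurog3 and to Isl1. Any other gene named was picked with its values in view. Rfx3, Nkx2-3, Nkx2-5 and Hand2 each stand in a pair of lists. Some listed genes are not analysed here, and list counts are given over those tested. Alternatives were a replicate block, each array left out, 3 other scalings, filters on dim genes, other use of rows, another prior, array weights, a threshold of 0.01 and values relative to epithelial genes.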

Additional observations from a re-analysis of the deposited data

How the results depend on the processing

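The 9 decreases passed the test under every alternative that tested them, with adjusted p up to 0.00211 (Rfx6, all rows in the fit). With genes below the median left out, 6 of the 10 genes were tested and 5 fell, since Neurod1, Pax6, Myt1 and St18 were then no longer in the table. The count of proendocrine genes higher, 1 (Isl1), became 0 with all rows in the fit, centring on housekeeping genes, a threshold of 0.01 or the replicate block, and ranged from 0 to 1 with an array left out. Same-numbered arrays did not deviate together (r = 0.01, -0.15 and -0.05), so the numbers were not taken as pairs. With the replicate block Isl1 had an adjusted p of 0.0827, and over its 17 alternatives adjusted p ran from 2.45e-06 to 0.0979. Over all genes, higher counts were 843 without mutant replicate 1, 751 with all rows, 723 at a threshold of 0.01 and 3025 with array weights, which gave 2422 lower.

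Relative to epithelial genes, the higher counts became 7 upstream, 10 Neurog3-stage, 7 later, 1 hormone and granule, 26 family and 3 neural genes, and the lower counts 3 Neurog3-stage, 1 later, 0 family and 2 neural genes. On that scale Mnx1 (0.011), Irx1 (0.16) and Rfx3 (0.37) changed sign, and the Cbfa2t3, Snap25 and Th calls were lost. By construction this scale subtracts the epithelial decrease, and on it 94.1% of all genes tested were higher and 1.73% lower. The list counts on this scale follow in part from that subtraction. Among genes above the median, later factors had 3 lower, family genes 1 lower and 3 higher, neural genes 5 lower and gut mesenchyme genes 8 higher, with fewer genes tested. With all rows in the fit, counts were 0 higher Neurog3-stage, 3 lower later and 1 lower family genes. A threshold of 0.01 gave the same 3 counts. Array weights gave 10 lower Neurog3-stage, 1 higher later and 2 higher epithelial genes. Higher Neurog3-stage genes numbered 0 with housekeeping centring and 1 with the replicate block. With an array left out, ranges were 0 to 1 higher Neurog3-stage, 3 to 5 lower later, 1 to 2 lower family and 0 to 1 higher epithelial genes. Other causes were not tested. Of the recomputed counts 304 stayed within 1.5 times the reported ones and 52 did not. Of the changes of single genes 678 kept direction and call, 14 lost the call and 3 reversed. Several alternatives left the log2 change the same by construction, and leaving out an array could not reverse groups that did not overlap. Some unchanged counts compared 0 with 0, so these totals are not independent checks. Centring on medians, on housekeeping genes or by quantiles shifted the median change of all genes by 0.04, -0.07 and -0.01. Without detection calls, values near the lower quartile cannot be told from background.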
